A study of Mus musculus with 71 samples.

Results

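The peaks described here are RING1B ChIP intervals of mouse neural progenitor cells (NPC) at day 8 of differentiation that touched no RING1B interval of embryonic stem cells (ESC). They were chosen as the rows of the day-8 table that shared not a single base pair with the ESC RING1B ChIP list or the ESC RING1B CUT&RUN list. The rule left 1340 of 5393 day-8 peaks (24.8%), annotated to 1261 genes, and 941 of these genes had no day-8 peak that overlapped an ESC interval. The remaining 4053 day-8 peaks are called the kept peaks.

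All cells were J1 mouse ESC or derived from them. The cells compared here carried either wild-type CBX7 (WT) or CBX7-CaPS (CaPS). Per the series title, CaPS brings a Polycomb domain of committed cells into Polycomb repressive complex 1 (PRC1). The ESC RING1B CUT&RUN list, used in the rule, also has a column of a further genotype, mCaPS, whose values were not used. NPC were made in suspension aggregates freed of feeder fibroblasts and of the cytokine LIF, then exposed to retinoic acid, and both genotypes received this treatment. The day-8 table holds 2 RING1B libraries per genotype, from experiments 3 and 4, as the number in a sample's title is called here. A time course holds RING1B libraries of ESC, day 6 and day 8 for each genotype in experiments 3 and 5. H3K27me3 at day 8 has 1 column per genotype, and RING1B CUT&RUN in embryoid bodies (EB) of day 10 has 1 library per genotype. The labels do not say how CaPS was introduced, whether a genotype is 1 clone, or whether the libraries of a group are separate cultures. A p-value therefore rests on the spread between these libraries, largely pooled over peaks of like signal, and that spread may be technical. The tables hold no expression values, so the identity of the progenitors was not checked against markers.

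PRC1 places ubiquitin on histone H2A through its ligase RING1B, and PRC2 places H3K27me3, which the chromodomain of CBX subunits such as CBX7 can bind. Both complexes gather at CpG-rich promoters of silent developmental genes in ESC. During differentiation the set of occupied genes is known to change, with some lineage genes released and genes of the pluripotent state taken up.

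Promoter sequence is shown for 6 genes whose peak overlaps the promoter, since CpG content is what Polycomb sites are known for. Each is the 250 bases before the RefSeq start (GRCm38.p6), 5′ to 3′ on the gene's strand, with every CG in capitals. Tdgf1 and Junb are among the strongest peaks, Sgk1 had the largest log2 difference between ESC and day 8 in experiment 5 (from ESC values of 0), Lcn8 was among the lowest p-values for genotype, and Cbx7 and Pou5f1 come from the gene lists.
Tdgf1: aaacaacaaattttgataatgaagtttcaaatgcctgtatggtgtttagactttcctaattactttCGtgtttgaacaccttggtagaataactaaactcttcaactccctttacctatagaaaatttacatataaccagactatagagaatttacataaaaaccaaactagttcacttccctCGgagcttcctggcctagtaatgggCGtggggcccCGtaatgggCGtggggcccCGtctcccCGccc
Junb: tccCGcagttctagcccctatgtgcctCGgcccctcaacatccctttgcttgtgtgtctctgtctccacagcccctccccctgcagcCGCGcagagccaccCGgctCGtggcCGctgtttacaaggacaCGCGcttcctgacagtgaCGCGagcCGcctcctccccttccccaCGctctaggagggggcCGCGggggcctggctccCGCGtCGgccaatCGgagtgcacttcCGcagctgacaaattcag
Sgk1: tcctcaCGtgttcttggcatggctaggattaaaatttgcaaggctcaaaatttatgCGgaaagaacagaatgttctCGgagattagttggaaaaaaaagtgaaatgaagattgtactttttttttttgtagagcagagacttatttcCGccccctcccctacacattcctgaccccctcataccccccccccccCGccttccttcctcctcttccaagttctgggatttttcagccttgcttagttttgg
Lcn8: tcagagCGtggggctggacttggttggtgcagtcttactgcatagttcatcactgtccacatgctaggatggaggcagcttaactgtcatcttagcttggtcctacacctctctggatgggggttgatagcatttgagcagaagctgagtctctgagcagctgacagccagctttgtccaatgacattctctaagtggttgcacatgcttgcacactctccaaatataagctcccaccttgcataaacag
Cbx7: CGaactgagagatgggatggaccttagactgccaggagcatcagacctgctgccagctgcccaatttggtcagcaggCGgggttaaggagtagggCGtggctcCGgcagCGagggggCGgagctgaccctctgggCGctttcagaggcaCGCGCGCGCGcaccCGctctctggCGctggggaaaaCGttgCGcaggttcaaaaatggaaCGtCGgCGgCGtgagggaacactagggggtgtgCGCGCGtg
Pou5f1: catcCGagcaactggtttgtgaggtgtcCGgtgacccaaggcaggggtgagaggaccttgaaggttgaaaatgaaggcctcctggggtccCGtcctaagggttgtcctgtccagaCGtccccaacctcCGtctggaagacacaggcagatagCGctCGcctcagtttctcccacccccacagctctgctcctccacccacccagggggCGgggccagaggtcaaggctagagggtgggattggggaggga
Tdgf1 (chr9:110946159-110946408, minus strand) holds 7 CG, Sgk1 (chr10:21993640-21993889, plus strand) holds 5 and Lcn8 (chr2:25652868-25653117, plus strand) holds 1. Junb (chr8:84978749-84978998, minus strand) holds 20, Cbx7 (chr15:79932647-79932896, minus strand) holds 23 and Pou5f1 (chr17:35505782-35506031, plus strand) holds 8. The 6 promoters thus span CpG-poor to CpG-dense sequence.

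Over RefSeq promoter windows of 300 bases (250 before to 50 after the start), 192 windows overlapped a peak absent from ESC. They held a median of 19.5 CG on either strand, and 72.4% had an observed-to-expected CG ratio of 0.6 or more. The 1897 windows under kept peaks held a median of 20 CG, with 68.4% at that ratio, and all 32817 windows a median of 7 CG, with 35.8%. Where a peak covered a promoter, its CpG content was therefore near that of kept peaks. Fewer peaks did so: 162 of 1340 (12.1%) overlapped a promoter window, against 1424 of 4053 kept peaks (35.1%).

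Most peaks absent from ESC were narrow and weak. Their median width was 499 bp, the narrowest in the table, and 877 of them (65.4%) had exactly that width, against 24.1% of kept peaks, whose median was 917 bp. Values are RING1B tags in the peak scaled to 10 M tags per library, and levels are compared only within a table. The mean over the 4 day-8 libraries had a median of 7.16 (quartiles 5.75 and 9.66) in peaks absent from ESC and of 18.3 in kept peaks. A mean of 20 or more was reached by 77 peaks absent from ESC and by 1892 kept peaks. Introns held 594 of the 1340 peaks (44.3%), intergenic sequence 347 (25.9%, against 10.9% of kept peaks), promoters 265 (19.8%, against 26.7%) and exons 60. Peaks within 1 kb of a transcription start made up 37.4%, against 58.4%. By annotation, 1195 peaks belonged to protein-coding genes, 126 to non-coding RNA genes, 10 to snoRNA genes, 8 to pseudogenes and 1 to the ribosomal RNA unit.

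Many of these peaks lay beside an ESC interval. The median gap to the nearest was 5255 bp. It was at most 100 bp for 47 peaks, then up to 1000 bp for 335, up to 10000 bp for 401, up to 100000 bp for 350 and larger for 206, with no ESC interval on the chromosome of the last peak. At the edge of the rule, the 22 peaks with a gap of at most 50 bp had a median value of 8.95, and the 25 kept peaks with an overlap of at most 50 bp had 9.03.

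Absence from the ESC lists is not absence of RING1B from ESC. The ESC RING1B lists, like the day-8 list, hold only intervals within 10 kb of a transcription start, whereas the time course lists intervals at any distance. In the time course, 447 intervals overlapped peaks absent from ESC, and 164 of the 447 also overlapped an ESC interval, being wider. Of the other 283, 7 intervals, covering 14 of the peaks, had a centre more than 10 kb from a start. The widest of these, annotated to Gm29683 with its centre at -10703 bp from the start (chr7:70323066-70374045), read 6668 and 7721 tags per 10 M in WT ESC and 5523 and 5854 in CaPS ESC of experiments 3 and 5. At day 8 it read 1042 and 2839 in WT and 947 and 1733 in CaPS, below ESC in each pair. Day-8 peaks of Gm29683 and of Nr2f2, which lie inside it, are absent from ESC by the rule only, and whether the distance limit removed the ESC interval was not tested.

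The highest peak by value was the ribosomal RNA unit Rn45s (chr17:39843763-39848913, a non-coding exon), at 2521 and 10765 tags per 10 M in WT of experiments 3 and 4 and at 7455 and 7902 in CaPS. Ribosomal DNA is present in many copies, so this value cannot be placed at 1 locus. Gm29683 (chr7:70323348-70338247, intron 1) followed, with 591 and 1058 in WT and 549 and 400 in CaPS. The orphan nuclear receptor gene Nr2f2 (chr7:70368659-70371956, intron 1) read 62.9 and 135 in WT and 62.8 and 44.6 in CaPS. Both these loci are inside the interval that was strong in ESC.

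Among genes of the Nodal pathway, which keeps pluripotent cells responsive to patterning, Tdgf1 (chr9:110944563-110948450, promoter) had the strongest peak. Tdgf1 encodes the Nodal co-receptor Cripto. Its values were 105 and 212 in WT (159 ± 75.5, SD, n = 2) and 244 and 174 in CaPS (209 ± 49.3, SD, n = 2), and the genotypes overlapped. Nodal itself, the ligand (chr10:61418099-61419460, intron 1), read 22.7 and 59.3 in WT and 39.5 and 40.4 in CaPS. Lefty1, a secreted Nodal antagonist (chr1:180934103-180934756, promoter), read 5.32 and 36.3 in WT and 2.96 and 1.05 in CaPS. Both CaPS values of Lefty1 were below both WT values, as at 26.8% of all day-8 peaks. The WT libraries differed more from each other than the genotypes did in experiment 3.

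Transcription factors of the pluripotent state formed another group. The Klf5 peak (chr14:99299264-99300715, intron 1) read 29.02 and 38.2 in WT and 51.1 and 35.2 in CaPS. Klf2 (chr8:72320200-72321118, intron 2) read 11.6 and 47.8 in WT and 13.8 and 13.7 in CaPS. Pou5f1, which encodes OCT4 (chr17:35505401-35507005, exon 1), read 12.6 and 63.1 in WT and 11.8 and 24.7 in CaPS. In Klf2 and Pou5f1 the WT library of experiment 4 stood above the other 3. The zinc finger factor gene Sall4 (chr2:168765119-168766229, intron 1) read 11.1 and 13.4 in WT and 26.6 and 29.9 in CaPS, without overlap between genotypes. Both CaPS libraries were above both WT libraries at 13.2% of all day-8 peaks.

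FGF signalling was represented by a ligand, a feedback inhibitor and target factors. Of the day-8 peaks of FGF genes 17.6% were absent from ESC, under the 24.8% over all day-8 peaks. Fgf18, a ligand (chr11:33143429-33145562, intron 2), read 16.9 and 63.1 in WT and 16.4 and 15.2 in CaPS. Spry2, a feedback inhibitor of receptor tyrosine kinases (chr14:105894203-105895749, intron 1), read 43.5 and 46.9 in WT and 36.1 and 24.7 in CaPS. The ETS factor genes Etv5 (chr16:22437063-22438407) and Etv4 (chr11:101782871-101784056, intron 4) are known FGF targets. Etv5 read 32.9 and 19.12 in WT and 23.7 and 25.7 in CaPS. Etv4 read 19.8 and 45.9 in WT and 15.4 and 10.5 in CaPS. CaPS lay below WT without overlap at Fgf18, Spry2 and Etv4, and the groups overlapped at Etv5. Such an order held at 26.8% of all day-8 peaks and at 55.6% of those absent from ESC, so nothing is read from it.

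The remaining strong peaks belonged to genes of varied function. Otud1, a deubiquitinase gene (chr2:19658787-19661301, 3′ UTR), read 68.2 and 47.8 in WT and 106 and 94.5 in CaPS. Map7, a microtubule-associated protein gene (chr10:20149279-20151249, intron 1), read 42.6 and 32.5 in WT and 131 and 84.5 in CaPS. Nanos1, the gene of an RNA-binding translational regulator (chr19:60756702-60758677, 3′ UTR), read 37.2 and 47.8 in WT and 73.2 and 54.1 in CaPS. At all 3 genes both CaPS libraries were above both WT libraries, as at 13.2% of all day-8 peaks. The same order held at 20 of the 77 peaks absent from ESC with a mean of 20 or more. None of the 3 passed for genotype (limma adjusted p = 0.825 for Otud1, 0.566 for Map7 and 0.902 for Nanos1). Nothing is read from the order. The AP-1 subunit gene Junb (chr8:84977202-84978986, exon 1) read 21.3 and 86.1 in WT and 49.1 and 66.7 in CaPS. Zyg11a, Cnnm2 and Eml5 had means between 54.8 and 70.1. The epithelial adhesion gene Epcam (chr17:87636956-87638295, intron 2) read 20.8 and 53.5 in WT and 33.0 and 25.2 in CaPS. CaPS lay inside the WT range at Junb and Epcam.

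Polycomb genes were in the set too, at a share (26.7% of their day-8 peaks) near the 24.8% over all day-8 peaks. Cbx7, the gene of the subunit that differs between the genotypes, had a promoter peak (chr15:79931722-79934198) with 30.5 and 40.2 in WT (35.3 ± 6.84, SD, n = 2) and 38.3 and 58.8 in CaPS (48.5 ± 14.5, SD, n = 2). The groups overlapped. The gene of the PRC1 subunit PHC1 had a promoter peak with 9.67 and 17.2 in WT and 18.0 and 8.93 in CaPS, and Rybp, which encodes a subunit of variant PRC1, a weak intronic peak with 9.19 and 14.3 in WT and 4.54 and 0 in CaPS.

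**Figure D1:**
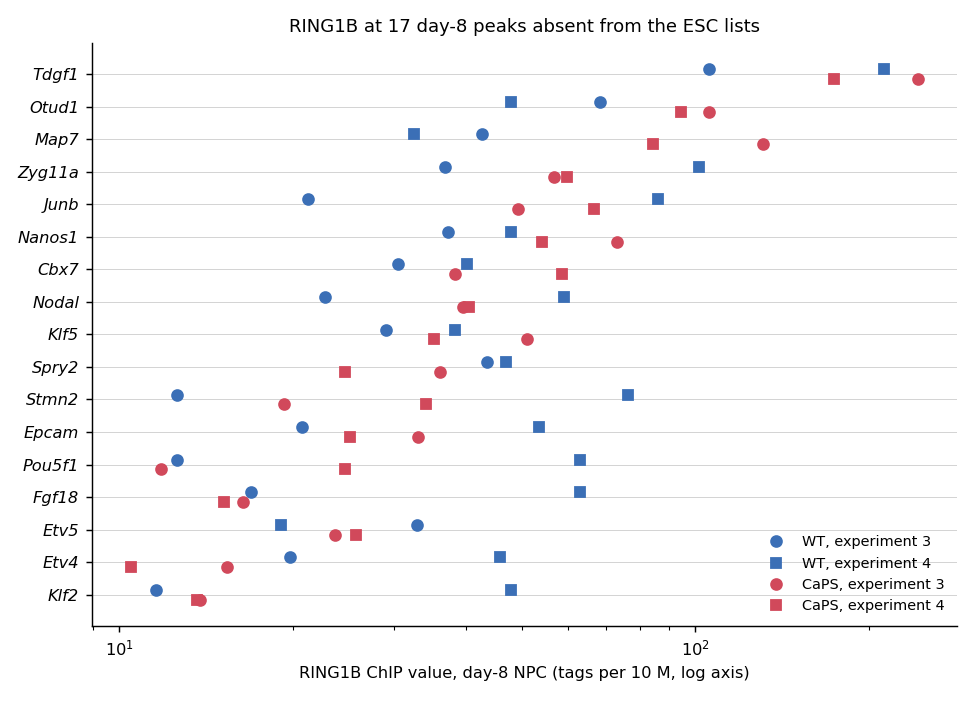
RING1B ChIP values in day-8 NPC (tags per 10 M, log axis) at 17 peaks absent from the ESC lists, 1 point per library, blue for WT and red for CaPS, circles for experiment 3 and squares for experiment 4. Tdgf1 lies to the right of the other genes in each library, and for Pou5f1, Klf2 and Fgf18 the WT library of experiment 4 stands apart from the other 3.

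In the gene lists, the share of day-8 peaks that were absent from ESC is read beside 24.8% over all day-8 peaks. Of the pluripotency genes, 10 of 28 peaks (35.7%) were absent from ESC, at Tdgf1, Klf5, Pou5f1, Klf2, Sall4, Lefty1, Utf1 and Nanog. For 6 of these 8 genes no kept peak existed, 8 of the 10 peaks overlapped a day-8 H3K27me3 peak, and 5 had a mean of 20 or more. Of the FGF genes 6 of 34 peaks (17.6%) were absent, all 6 with H3K27me3, and of the TGF-beta and BMP genes 5 of 36 (13.9%), 4 with H3K27me3. Polycomb genes had 4 of 15 (26.7%), genes whose symbols start with Zfp 25 of 64 (39.1%), 3 of these 25 with H3K27me3, and solute carriers 27 of 114 (23.7%).

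Lineage genes were mostly kept. No peak of the mesoderm and muscle list (41 peaks) or of the cyclin-dependent kinase inhibitors (6 peaks) was absent from ESC. Hox genes had 1 of 23 (Hoxd1), Notch genes 1 of 26 (Notch2), neural crest genes 1 of 17 (Foxd3), Wnt genes 3 of 58 and endoderm genes 1 of 13 (Hhex). Neural progenitor genes had 9 of 60 (15.0%), among them Dbx2, Pou3f1, En2 and Neurog2, all with a mean under 20 and 8 of the 9 peaks with H3K27me3, and for 6 of the 7 genes concerned a kept peak existed as well. Shares in the epithelial (2 of 15), neuronal (2 of 15), trophoblast (1 of 12), blood and endothelium (3 of 18), hedgehog (2 of 12), retinoic acid (3 of 14), germ cell (2 of 6), cadherin (3 of 27) and potassium channel (11 of 71) lists ranged from 8.33% to 33.3%. Of the markers of feeder fibroblasts, Pdgfrb was absent from ESC and 3 of 4 peaks were kept. The housekeeping list had peaks at Gapdh and Pgk1 only, and both were absent from ESC.

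The time course shows how part of these sites changed from ESC. Its intervals overlapped 464 of the 1340 peaks (34.6%), against 90.4% of kept peaks, and the other 876 have no course. The experiment 3 libraries supplied the tables that chose the peaks, so their difference from ESC is a description, and tests used the 6 libraries of experiment 5, with WT and CaPS as the replicates of a time. These libraries held 2.01 to 6.20 M tags. In that experiment 12 of the 447 overlapping intervals rose from ESC to day 8 (limma, adjusted p under 0.05) and 6 fell, that is 2.68% and 1.34%, where 0.292% and 4.21% of all 15091 intervals were called higher and lower. The median difference was 0.24 on the log2(value + 1) scale, against -0.42 over all intervals. It was -0.03 in the WT pair (48.8% of intervals higher) and 0.47 in the CaPS pair (66.7% higher), and without the CaPS ESC library it turned to -0.19, with 6 intervals higher and 16 lower. Among the 283 intervals with no ESC interval, 9 rose and 1 fell, with a median of 0.44. At day 6, 1 of 447 rose and 0 fell (0.0265% and 0.146% of all), with 87 at an unadjusted p under 0.05, of 1980 over all intervals. The day-6 median was 0.55 against -0.18 over all; it was 0.06 without the CaPS ESC library and 0.12 without the CaPS day-6 library.

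The count was 0 without the WT or without the CaPS day-8 library of experiment 5, and 0 with the genotype left out of the fit, while edgeR on the recovered read ends called 88 higher and 2 lower, of 413 and 375 over all intervals. With each library scaled to the same sum over peaks, 46 were higher and 5 lower, of 203 and 397 over all, and the median over all intervals moved from -0.42 to 0.06.

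Nanos1 had the lowest adjusted p of the genes that the naming rule picked. Its interval read 10.2, 45.7 and 39.4 tags per 10 M in ESC, day 6 and day 8 of WT experiment 3, and 3.67, 19.9 and 43.5 in WT experiment 5. CaPS read 19.4, 51.8 and 73.4 in experiment 3 and 18.6, 142 and 140 in experiment 5. Every differentiated library was above the ESC library of its genotype and experiment. The rule had used the ESC and day-8 libraries of experiment 3, so their order is a description. In experiment 5 the log2 rise to day 8 was 3.05 (SE 0.56, limma adjusted p = 0.00137), and Nanos1 was also the interval called at day 6 (adjusted p = 0.0471). The WT ESC value of experiment 5 is below the 11.0 tags per 10 M that a count of 0 allows there, so the fold depends on the pseudocount.

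Tdgf1 read 34.9, 124 and 115 in ESC, day 6 and day 8 of WT experiment 3 and 89.8, 92.2 and 153 in WT experiment 5. CaPS read 52.6, 234 and 252 in experiment 3 and 78.5, 640 and 486 in experiment 5. Day 8 was above ESC in 4 of 4 pairs, including those of experiment 3, whose libraries the rule used. The log2 rise of Tdgf1 in experiment 5 was 1.69 (SE 0.51, limma adjusted p = 0.0492). Otud1 rose by 1.88 (SE 0.51, adjusted p = 0.0257), from 22 to 66.9 in WT and from 28.9 to 136 in CaPS. In experiment 3 Otud1 read 18.0 in WT ESC and 61.4 at day 8, and 35.6 and 105 in CaPS. Etv5, whose wider time-course interval also overlaps an ESC interval, rose by 1.75 (adjusted p = 0.0245), from 38.5 to 135 in WT and from 39.3 to 131 in CaPS. Eml5 (1.89, adjusted p = 0.0362) went from 25.7 to 38.7 in WT and from 20.7 to 199 in CaPS, so its rise lay mainly in the CaPS pair. Igsf11, an adhesion molecule gene, rose by 3.50 (adjusted p = 0.0193), with ESC values of 9.17 and 0 that are at or under the floors of 11.0 and 12.4, and day-8 values of 21.8 and 55.8. Without the CaPS ESC library of experiment 5 the Tdgf1, Otud1, Etv5, Eml5 and Igsf11 calls were lost and that of Nanos1 was not.

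The other intervals that rose were named after their values were seen: Cacna2d1, Tle4, Ern1, Zc3h10, Celf2 and Filip1l. Those that fell were 2 intervals of Msx3 and those of Zbtb7c, Pcdh8, Ffar4 and Sox6os. Sgk1, Plec and Eya1, which with Igsf11 and Nanos1 had the largest day-8 differences in experiment 5, did not pass (adjusted p = 0.0543, 0.158 and 0.204), and their ESC values lay at or under the floors.

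Some genes of the pluripotency, signalling and Polycomb groups read higher at day 8 than in ESC in each pair without passing the test. Klf5 read 18.3 and 69.7 in WT ESC and 44.0 and 97.6 at day 8 in experiments 3 and 5, and 32.2 and 37.2 against 79.9 and 131 in CaPS (log2 difference in experiment 5 of 1.135, adjusted p = 0.214). Nodal read 15.1 and 42.2 against 49.5 and 69.3 in WT and 37.5 and 72.3 against 67.5 and 136 in CaPS (0.80, adjusted p = 0.398). In both genes the CaPS library of experiment 5 was the highest at day 8. Spry2 read 26.3 and 64.2 against 72.0 and 152 in WT and 34.2 and 37.2 against 73.8 and 116 in CaPS (1.42, adjusted p = 0.068). Cbx7 read 18.3 and 20.2 against 41.1 and 50.8 in WT and 23.8 and 45.5 against 50.3 and 95.9 in CaPS (1.18, adjusted p = 0.193). Day 8 was above ESC in 4 of 4 pairs at each of these 4 genes, which were named with their values in view. Phc1, of the same list as Cbx7, read 44 in ESC and 32.25 at day 8 in WT of experiment 5, and higher at day 8 in the other pairs. Klf2, of the same list as Klf5, was not higher in each pair: it read 4.3 and 7.33 in ESC against 4.23 and 9.67 at day 8 in WT and 4.68 and 8.27 against 5.72 and 5.87 in CaPS (log2 difference in experiment 5 of -0.04). Of the 447 intervals, 95 (21.3%) had ESC below day 8 in all 4 pairs, where 6.43% of all time-course intervals did, and the opposite order held at 73 (16.3%), where 38.1% of all did. Nothing is read from these counts, since the rule used the experiment 3 libraries of 2 of the 4 pairs. Pou5f1, Fgf18 and Lefty1 had no time-course interval. In all such comparisons, a higher value in some cells and a value present in more cells cannot be told apart.

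**Figure D2:**
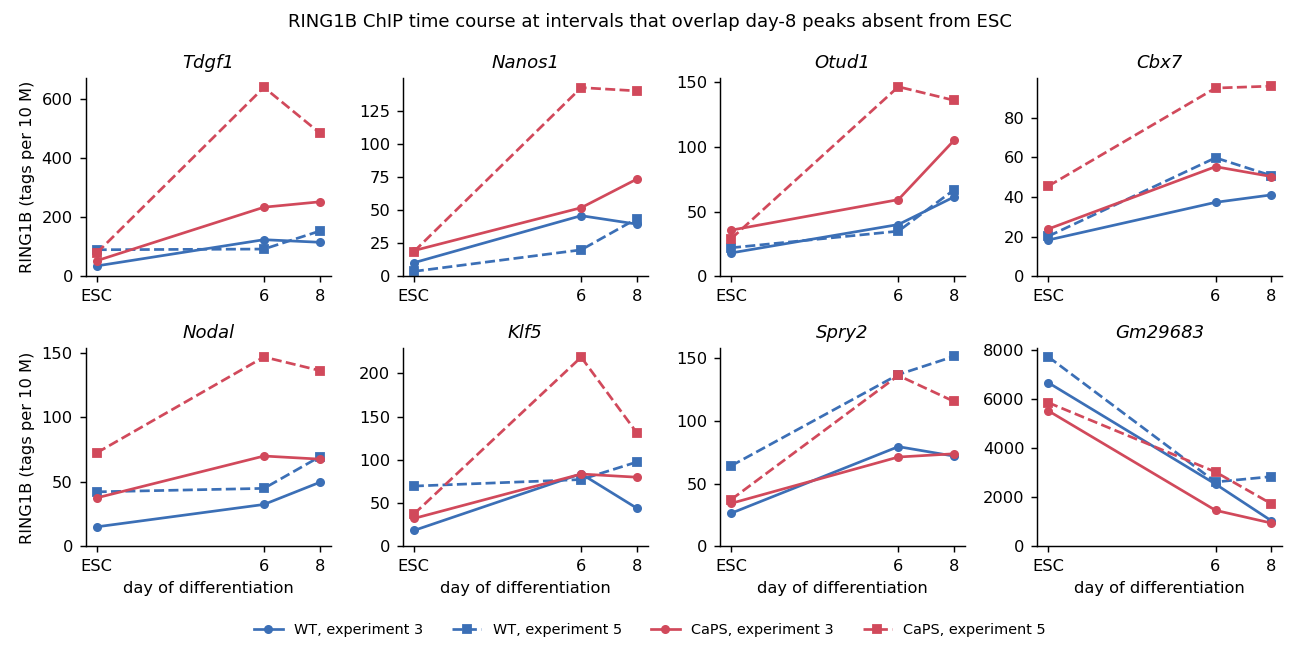
RING1B values (tags per 10 M) in ESC, day 6 and day 8 at 8 time-course intervals that overlap peaks absent from ESC, blue for WT and red for CaPS, solid lines with circles for experiment 3 and dashed lines with squares for experiment 5, 1 library per point. Nanos1, Otud1, Cbx7, Nodal, Klf5, Spry2 and Tdgf1 end above their ESC value in each of the 4 series, while Gm29683 starts at 5523 to 7721 in ESC and ends lower. The rule that chose the peaks used the ESC and day-8 libraries of experiment 3.

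H3K27me3 accompanied a minority of the peaks absent from ESC, and its share was larger at stronger RING1B peaks. A day-8 H3K27me3 peak overlapped 353 of 1340 (26.3%), against 73.0% of the 4053 kept peaks. In bins of mean RING1B value under 10, 10 to 20, 20 to 50, and 50 or more, the share was 17.3%, 50.2%, 69.8% and 92.9% (of 1026, 237, 63 and 14 peaks), against 41.2%, 66.6%, 87.7% and 98.2% of kept peaks. The gap between the sets was thus smaller within bins than overall. An ESC H3K27me3 peak, by ChIP or CUT&RUN, overlapped 21.6% of peaks absent from ESC and 71.5% of kept peaks, and among peaks absent from ESC its share stayed between 19.3% and 30.4% over the 4 bins.

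Among the 77 peaks absent from ESC with a mean of 20 or more, 57 (74.0%) had H3K27me3 at day 8 and 19 (24.7%) had it in ESC. H3K27me3 at day 8 without an ESC H3K27me3 peak was seen at 39 of the 77 (50.6%), against 193 of 1892 kept peaks of that strength (10.2%). Tdgf1, Otud1, Nanos1, Junb, Zyg11a, Cbx7, Nodal, Klf5, Spry2, Epcam, Pou5f1, Fgf18, Etv4, Etv5 and Klf2 were of this kind. Nr2f2, Gm29683 and Eml5 had H3K27me3 peaks at both stages. Over all strengths the shares were 12.2% and 10.8%. These shares are descriptions with no test, and the ESC CUT&RUN list of H3K27me3 also holds only intervals within 10 kb of a start.

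**Figure D3:**
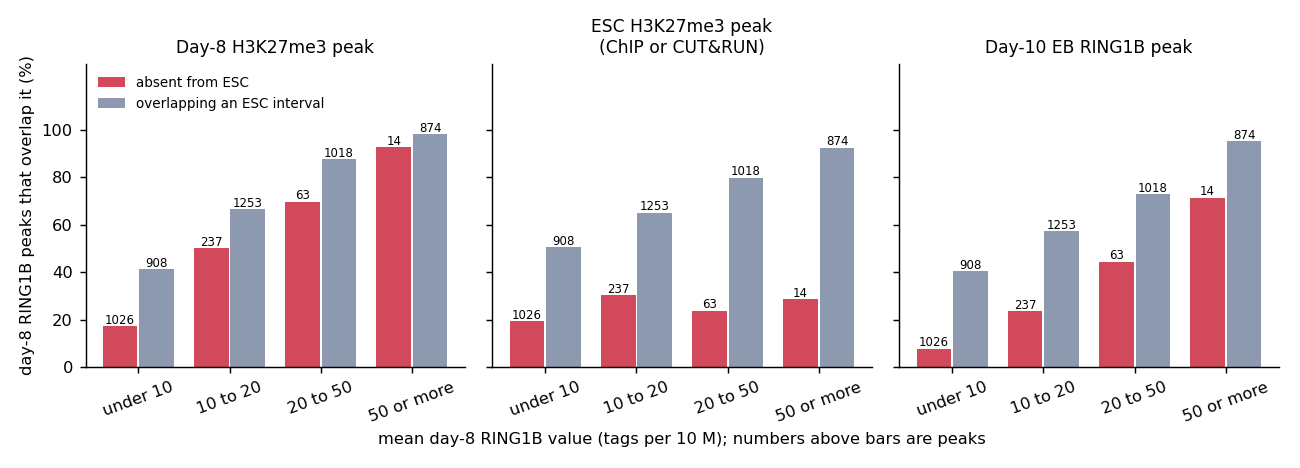
Share of day-8 RING1B peaks (%) that overlap a day-8 H3K27me3 peak, an ESC H3K27me3 peak or a day-10 EB RING1B peak, by mean day-8 RING1B value (tags per 10 M), red for peaks absent from ESC and grey for kept peaks, with the number of peaks above each bar. In peaks absent from ESC the day-8 H3K27me3 share goes from 17.3% to 92.9% across the bins, while the ESC H3K27me3 share stays between 19.3% and 30.4%.

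By genotype, H3K27me3 has 1 column each, which the headers call pooled, so there is no replicate check and no test. At the 341 H3K27me3 intervals that overlapped peaks absent from ESC, the median was 149 tags per 10 M in WT and 87.4 in CaPS, and the median log2 difference was -0.83, against -1.06 over all 8657 intervals. CaPS was past 2-fold lower at 118 (34.6%, against 54.5% of all) and past 2-fold higher at 13 (3.81%, against 3.06%). The WT column, from 4.47 M tags, had 16.4% of its tags in peaks and the CaPS column, from 32.88 M tags, 8.20%. When both columns were brought to an equal sum over peaks, the median became 0.15, so the direction over the set reversed. At an equal share of tags the ratio of CaPS to WT would be 0.501.

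Single genes differed from that ratio in both directions. Spry2 read 162 in WT and 27.8 in CaPS, a ratio of 0.172 (95% counting interval 0.125 to 0.237), and Etv5 read 173 and 44.6, a ratio of 0.258 (0.194 to 0.344). Junb (376 and 140, ratio 0.371, 0.31 to 0.446), Klf2 (387 and 153, ratio 0.395, 0.332 to 0.472) and Etv4 (802 and 343, ratio 0.429, 0.38 to 0.484) also had intervals below 0.501. Thus these 5 genes read lower in CaPS under both scalings. Tdgf1 read 568 and 289 (ratio 0.508, 0.442 to 0.585), Nanos1 182 and 102 (0.56, 0.438 to 0.723), Klf5 178 and 92.9 (0.518, 0.404 to 0.671) and Cbx7 133 and 82.9 (0.618, 0.466 to 0.832). Their direction depended on the scaling. Each counting interval includes 0.501, so at an equal share of tags these genes did not differ beyond counting error.
Pou5f1 read 132 and 157 (ratio 1.19, 0.906 to 1.58), Nodal 341 and 266 (0.776, 0.653 to 0.928) and Map7 79.5 and 101.3 (1.26, 0.89 to 1.83), all above 0.501. Nr2f2, with 344 and 66.0, had a ratio of 0.193 (0.156 to 0.239). The highest H3K27me3 values beside the rDNA unit included non-coding genes whose own RING1B peak was weak, such as Tbx3os2 (mean 9.08) with 5317 in WT and 960 in CaPS and Otx2os1 (mean 7.98) with 3575 and 1824.

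**Figure D4:**
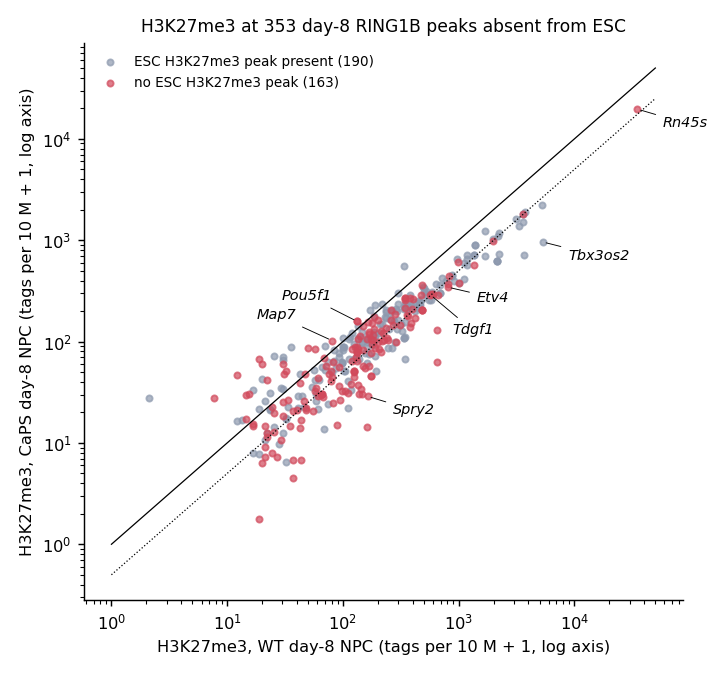
H3K27me3 in WT (x) and CaPS (y) day-8 NPC (tags per 10 M + 1, log axes) at the 353 day-8 RING1B peaks absent from ESC that overlap an H3K27me3 peak, grey for those with an ESC H3K27me3 peak (190) and red for those without (163). The solid line marks equal values and the dotted line a 2-fold lower value in CaPS. Most points lie below the solid line, and Spry2 and Tbx3os2 lie well below the dotted line.

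RING1B in CaPS and WT was compared in the day-8 table with limma, with the experiment as a block. None of the 1340 peaks absent from ESC passed (0 lower and 0 higher, as for all 5393 peaks, 0% called in each direction). The lowest adjusted p was 0.43, and 304 of the 1340 (22.7%) had an unadjusted p under 0.05, against 9.86% of all peaks. Other fits did make calls. With edgeR 83 peaks were lower and 33 higher, where over all 5393 peaks 134 were lower and 247 higher. DESeq2 called 0 lower and 10 higher, of 21 and 142 over all peaks, and the same sum over peaks gave 122 lower and 35 higher, of 243 and 192. Without the block, 23 were lower and 5 higher, of 26 and 11. Without the WT library of experiment 3, 403 were lower and 73 higher, of 1665 and 241 over all peaks.

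As a description, CaPS read lower than WT at most of the weak peaks. The day-8 peaks come from the same libraries that are compared, so a weak peak may have entered through a library where it read high. Whether this produced the difference was not tested. Nothing is read from these shares, from the unadjusted p-values or from the calls of the other fits. The median log2 difference was -0.92, against -0.37 over all peaks. Both CaPS libraries were below both WT libraries at 745 of the 1340 (55.6%), where 26.8% of all peaks were, and above both at 185 (13.8%), where 13.2% were. By experiment the median was -0.56 in experiment 3 and -1.22 in experiment 4, against 0.27 and -0.80 at kept peaks. The 77 peaks with a mean of 20 or more had medians of 0.60 and -0.47, opposite in the 2 experiments. Peaks that overlap no time-course interval (876) had a median of -1.26, and those that do (464) of -0.02. At the weak peaks, the values stand for few tags: a count of 0 allows 2.902 and 5.736 tags per 10 M in WT and 1.184 and 3.150 in CaPS of experiments 3 and 4.

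**Figure D5:**
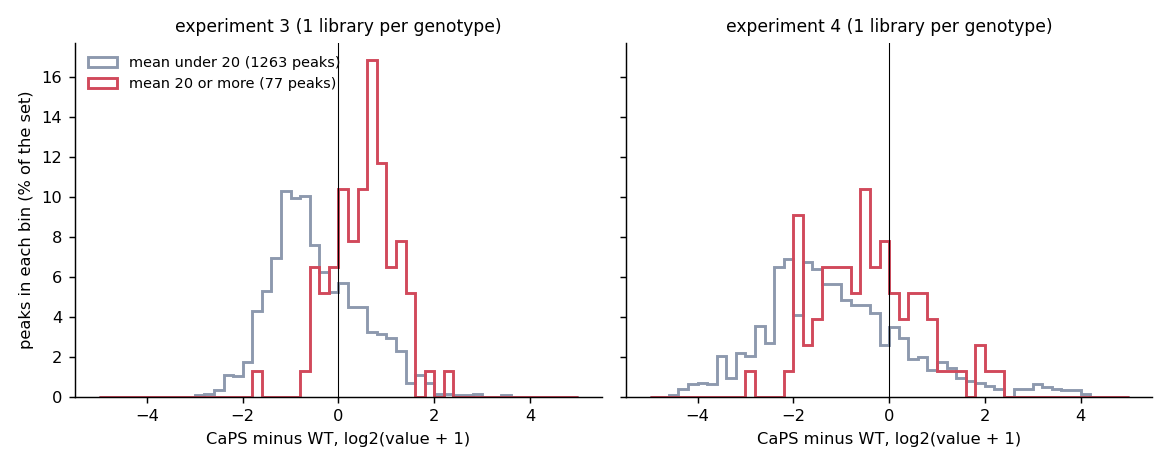
CaPS minus WT difference in RING1B on the log2(value + 1) scale at the day-8 peaks absent from ESC, in experiment 3 and experiment 4 (1 library per genotype each), as the share of peaks in each bin (%), grey for 1263 peaks with a mean under 20 and red for 77 with a mean of 20 or more. The grey peaks centre below 0 in both experiments, while the red peaks centre at 0.60 in experiment 3 and at -0.47 in experiment 4.

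The peaks with the lowest p-values for genotype were weak. Enc1 (chr13:97241310-97241938, intron 1) read 1.93 and 0 in WT and 12.6 and 16.8 in CaPS (log2 3.19, adjusted p = 0.43), and a second Nr2f2 peak (chr7:70358161-70358827, intron 1) read 10.2 and 0 in WT and 21.1 and 15.2 in CaPS. Lcn8, the gene of a lipocalin (chr2:25653043-25653786, intron 1), read 8.22 and 18.2 in WT and 0.99 and 0 in CaPS (log2 -3.24, adjusted p = 0.455). H2-Q10 and Rnase9 were alike, with 9.67 and 22.95 against 2.96 and 0, and 7.74 and 15.3 against 0.99 and 0. None of the 5 passed. With the same sum over peaks all did (adjusted p = 0.000319 for Enc1, 0.000281 for Lcn8, 0.000961 for H2-Q10, 0.000703 for Rnase9 and 0.00672 for Nr2f2), and Enc1, Lcn8, H2-Q10 and Rnase9 passed under 5 of 9 alternatives. They were chosen for these p-values, so the separation of the genotypes is a description.

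The time course adds the day-8 libraries of experiment 5 and shares those of experiment 3. There 22 of the 447 intervals were higher in CaPS and 2 lower (limma, adjusted p under 0.05), that is 4.92% and 0.447%, where 0.769% and 0.245% of all intervals were. The median log2 difference was 0.47, against 0.26 over all. The experiment 3 libraries also supplied the day-8 table, so a peak may have entered through the genotype where it read high. Whether this changed the shares called was not tested. With the same sum over peaks 22 were higher and 8 lower, where over all intervals 137 were higher and 146 lower, and the medians became 0.18 and -0.02. Among the 283 with no ESC interval, 12 were higher and 0 lower, with 46 at an unadjusted p under 0.05, of 1454 over all 15091 intervals. The calls rest on experiment 5: without its CaPS day-8 library the count was 0 and without its WT day-8 library 1, and without the block 7 were higher and 1 lower. Of the day-8 libraries in that experiment, CaPS had 8.51% of its tags in peaks and WT 6.98%, and at day 6 the shares were 12.1% and 6.59%, and their part in the result was not tested.

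Map7 had the lowest adjusted p of the genes that the naming rule picked. It read 168.7 in CaPS and 57.6 in WT of experiment 3, and 327 and 60.5 in experiment 5 (log2 1.98, SE 0.37, limma adjusted p = 4.4e-05), while ESC read 42.2 and 57.9 in CaPS and 34.7 and 38.5 in WT. Experiment 4, in the day-8 table, read 84.5 in CaPS and 32.5 in WT. Its libraries helped to choose the peaks, so this order is a description. The Map7 time-course interval overlaps an ESC interval, since it is wider than the day-8 peak. Eml5 was higher in CaPS by 1.77 (adjusted p = 0.00135), with 108 against 46.1 and 199 against 38.7. Tdgf1 was higher by 1.39 (SE 0.35, adjusted p = 0.0127), with 252 against 115 and 486 against 153, but in experiment 4 the order was opposite, 174 against 212. A Prdm1 interval, at the gene of a transcriptional repressor needed for germ cell formation, was higher by 1.39 (adjusted p = 0.0129). All 4 calls were lost without either experiment 5 library. Their log2 differences were then 1.78 and 1.65 for Map7, 1.48 and 1.39 for Eml5, 1.21 and 1.25 for Tdgf1 and 1.12 and 1.20 for Prdm1, without the WT and the CaPS library. The Tdgf1 call was also lost without either experiment 3 library and the Prdm1 call without the CaPS library of experiment 3 (adjusted p = 0.111), and without the block the adjusted p was 0.399 for Tdgf1 and Prdm1 and 0.12 for Eml5.

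Other intervals higher in CaPS, named after their values were seen, included Tle4, Ap1s2, Celf2, Frmd5, a second Prdm1 interval, Nova1, Mkrn1, Mir8110, Fam169a, Trim71, Jam2, Tbc1d9, Skap2, Hist3h2bb-ps, Gm715, Gm38438 and Prdm8. Ppp1r13b and Gm15825 were lower. The largest difference, 2.72 at Ap1s2 (a clathrin adaptor gene), had 85.5 against 20.7 in experiment 3 and 186 against 16.1 in experiment 5. The change from ESC to day 8 itself differed between genotypes at 7 of the 447 intervals, all more positive in CaPS (0 more negative). Of all intervals 0.199% and 0.0729% did so, and Tle4 and Ap1s2 were among the 7. This fit included the experiment 3 libraries, which had also entered the tables that chose the peaks.

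In EB of day 10, measured by CUT&RUN in 1 library of 12.30 M tags per genotype, 173 of the 1340 peaks (12.9%) overlapped a RING1B interval, against 65.7% of kept peaks. The share was 7.70% of peaks with a mean under 10 and 71.4% of those with 50 or more, against 40.5% and 95.3% of kept peaks. At the 163 EB intervals concerned the median was 12.2 tags per 10 M in WT and 15.0 in CaPS, a median log2 difference of 0.41, against 0.15 over all 6547. CaPS was past 2-fold higher at 32 (19.6%, against 16.6% of all) and past 2-fold lower at 5 (3.07%, against 8.84%). Tdgf1 read 21.5 in WT and 34.96 in CaPS (ratio 1.65, 95% counting interval 0.993 to 2.8) and Klf5 21.95 and 35.8 (1.63, 0.987 to 2.74), neither of which excludes equality. Stmn2, a microtubule regulator of neurons, read 7.32 and 18.3 (2.44, 1.08 to 6.03), and Enc1 15.5 and 34.6 (2.26, 1.29 to 4.11). With 1 library per genotype these intervals cover counting error only.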

How the data were processed

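RING1B, H3K27me3 and their controls were profiled by ChIP-seq and CUT&RUN. Tools in the submitters' processing notes are HOMER 4.10.4, Bowtie2 2.3.4.3, cutadapt 1.14 and SAMtools 1.9, and the build is mm10. Per the file headers, values are normalised signal, tags per interval scaled to 10 M tags. The authors called peaks over input or IgG and averaged replicates, per the series design text. Drosophila chromatin was spiked into ChIP samples, per the labels' protocols, and whether the totals include it is not stated. Header totals ran from 5.23 to 25.34 M tags in the day-8 table and from 2.01 to 25.34 M in the time course. CaPS day 8 of experiment 3 is the same library in both tables, while the total of WT day 8 of experiment 3 differs (11.81 M tags among the time-course columns, 10.34 M in the table of day 8 alone). A further 2 columns of unmatched libraries were not used. All values (100%) multiplied back to whole read ends (0.5 tag, tolerance at most 0.0253 read ends).

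Overlap meant 1 bp or more. log2(signal + 1) was tested with limma 3.58.1 (trend, R 4.3.3). P-values were adjusted by Benjamini-Hochberg over each whole table at a threshold of 0.05, with edgeR 4.0.16 and DESeq2 1.42.0 on read ends as alternatives. For the genotype fits limma's prior degrees of freedom were infinite, so a p-value there reflects the spread usual at that signal. In the experiment 5 fits they were 31.7, so a p-value there also leans mostly on that spread and little on the interval's own. The unit was signal and not counts, so limma was used as planned for that case. Same-numbered libraries correlated after removal of group means (r = 0.253 in the day-8 table, 0.0645 to 0.215 in the time course), and the pairing as experiments rests on the series design text. Ratios of single libraries carry exact conditional binomial 95% intervals. Scripts were tested on simulated data. Named genes are the 10 highest RING1B values, the 5 lowest genotype p-values with 1 sign in both experiments, the 5 highest H3K27me3 values, the 5 largest day-8 differences in experiment 5, and up to 4 genes of each of 25 lists, with exceptions named in the text. The result for 1 gene is not reported here. Sequences are RefSeq promoter windows, in place of peak-centred bases. The peaks, lists and tests were chosen with earlier results of these data known.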

Additional observations from a re-analysis of the deposited data

Results flagged for a closer look

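At 7 time-course intervals the change from ESC to day 8 differed between the genotypes (limma, CaPS minus WT difference of the log2 change, adjusted p under 0.05). All 7 were more positive in CaPS and 0 were more negative, of 447, where 0.199% and 0.0729% of all 15091 intervals were. The experiment 3 libraries among these had also entered the tables that chose the peaks, and no explanation was tested.

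The difference was 2.493 at Nova1, a neuronal splicing factor gene, with 33.9 and 16.9 tags per 10 M in WT day 8 and 79.7 and 142 in CaPS day 8 of experiments 3 and 5, from 21.8 and 36.7 in WT ESC and 27.5 and 16.5 in CaPS ESC (adjusted p = 0.018). It was 2.779 at the corepressor gene Tle4, with 43.6 and 65.3 in WT and 169.1 and 304 in CaPS at day 8, from 35.5 and 38.5 and from 39.1 and 12.4 in ESC (adjusted p = 0.00107). At Tbc1d9 it was 2.925 and at Ap1s2 3.01 (adjusted p = 0.00812 at each). In CaPS ESC of experiment 5, Tle4 was at the floor of 12.4 tags per 10 M and Ap1s2, with 8.27, under it. The differences at Tle4 and Ap1s2 therefore depend on the pseudocount. WT libraries read lower at day 8 than in ESC at Tbc1d9 in both experiments, and CaPS libraries higher. Gm38438 (2.338, adjusted p = 0.00812) and Prdm8 (2.09, adjusted p = 0.0481) were of another kind, since ESC values were high: at Gm38438 ESC read 504 and 526 in WT and 399 and 395 in CaPS, against 186 and 95.1 and 342 and 799 at day 8. The Gm38438 interval overlaps an ESC interval, and that of Prdm8 has its centre at -11178 bp from the start.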

How the results depend on the processing

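Peaks far from ESC intervals and strong peaks were fewer: 557 had none within 10 kb and 77 a mean of 20 or more. The H3K27me3 share of 26.3% became 22.4% with 0.5 of the peak covered, 17.3% without an ESC interval within 1 kb, 14.5% within 10 kb and 74.0% at a mean of 20 or more. The EB share of 12.9% became 8.66% with 0.5 covered and 49.4% at a mean of 20 or more. The H3K27me3 difference of -0.83 reversed to 0.15 with the same sum over peaks. Calls for genotype in the day-8 table, 0 as reported, were 157 with the same sum, 28 with no replicate block, 116 with edgeR and 10 with DESeq2, and 0 to 476 when 1 library was left out. In the time course the 24 genotype calls became 8 with no replicate block, 14 without an ESC interval within 1 kb, 5 within 10 kb, 12 with no ESC interval, 11 of these within 10 kb of a start, and 0 to 23 when 1 library was left out. With the same sum, 8 were lower and 22 higher. The 18 calls of day 8 against ESC in experiment 5 became 36 at a mean of 20 or more, 51 with the same sum, 0 with no genotype term, 90 with edgeR, 38 with DESeq2, 8 without an ESC interval within 10 kb, 10 with no ESC interval, 9 of these within 10 kb of a start, and 0 to 26 when 1 library was left out. Without the CaPS ESC library these were 22, with 16 lower and 6 higher in place of 6 and 12, and the median turned from 0.24 to -0.19. The 1 call of day 6 became 7 with a pseudocount of 5, 16 at a mean of 20 or more, 37 with the same sum, 0 with no genotype term, 41 with edgeR, 17 with DESeq2 and 0 to 27 when 1 library was left out. The cause of these changes was not tested. Selections by ESC interval in the time course were added after seeing the data. Of the 15 gene results for which alternatives were run, none changed direction. Those that passed did not do so under 2 (Map7) to 5 (Igsf11, and Tdgf1 for genotype) of their 10 alternatives. The other named genes were not rerun. The shallow libraries of experiment 5, down to 2.01 M tags, limit what can be seen at weak peaks.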
